A study of Mus musculus with 11 samples.

Results

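Gfap, Aqp4, Aldh1l1, S100b, Slc1a2, Slc1a3, Gja1, Aldoc, Apoe and Sparcl1 are 10 genes widely used as markers of astrocytes, and they were followed here in neural progenitor cells (NPCs) and in the embryonic cortex of mice without Syncrip, an RNA-binding protein of the hnRNP family. The genes were taken as a named list, and all 10 are present among the 48440 genes of the RNA-seq count table and among the 32285 genes of the single-cell matrices. RNA-seq compared 3 WT and 3 Syncrip cKO cultures of NPCs, and single-cell RNA-seq (scRNA-seq) compared the dorsal cortex of 1 WT and 1 cKO embryo carried by the same mother. In the cKO mice, of C57BL/6 background, both Syncrip alleles carry loxP sites around exons 2 to 4 (Syncrip fl/fl), and per the study's methods the deletion is driven by Emx1-Cre, which acts in progenitors of the dorsal telencephalon. All tissue was taken at E14.5 (embryonic day). Per the methods, NPCs were dissected from around the lateral ventricles and grown with EGF and bFGF, and the passage of the RNA-seq cultures is not given. The cultures may hold cells in which Emx1-Cre does not act. A Nestin-Cre line is also named in the methods, and the labels of the cultures do not give the Cre.

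Astrocytes arise from radial glia, the apical progenitors (APs) of the cortex, after neurons have been made, so at E14.5 the cortex is still in its neurogenic phase. Some astrocyte genes, such as the glutamate transporter gene Slc1a3 and the aldolase gene Aldoc, are already used by radial glia, while others, such as the water channel gene Aqp4, mark later stages. Several of the 10 genes are also used outside the astrocyte lineage, for example Apoe in microglia and Sparcl1 and Gja1 in vessels and meninges, so their level in a mixed sample depends on which cells it holds.

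The cultures held between 16962903 and 22708400 counts each, and mitochondrial genes took 2.91% to 4.80% of them. Cultures of 1 genotype correlated with each other at r = 0.986 to 0.992 across genes. Y-linked genes had 5903 to 9232 counts in 3 cultures (WT replicates 1 and 2, cKO replicate 1) and 0 or 1 count elsewhere, so the sexes are not balanced between the genotypes. Syncrip itself, counted over the whole gene, stood at 77.9, 79.8 and 79.9 CPM (counts scaled to the same library size in all cultures) in WT, and the cKO cultures had 90.3, 88.7 and 81.5 CPM, and its difference did not pass the test (log2 fold change 0.13, edgeR adjusted p = 0.18). A whole-gene count does not measure the loss of exons 2 to 4, so it does not check the labels. The study itself reports that exons 2 to 4 were deleted in its RNA-seq tracks of E14.5 cKO neurospheres. Those tracks were not examined here. Of the 12 AP markers, Sox2 is listed at 0 in every culture, while Fabp7, Vim, Nes and Pax6 were measured in all of them. The labels do not say whether the 3 cultures of a genotype came from separate embryos, so p-values measure the spread between these cultures only.

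In the cultures, the astrocyte genes were lower without Syncrip. Of the 9 genes with enough counts to be tested, 8 fell and 0 rose, and the tenth, Gfap, had no counts at all. This is read against a comparison in which 39.5% of the 14432 tested genes were called, 19.8% of them as lower and 19.7% as higher in cKO. The median log2 fold change of the 9 genes was -0.89, and that of all tested genes was 0.002. In 7 of the 9 genes all 3 cKO cultures lay below all 3 WT cultures, which held for 24.7% of all tested genes, while 25.7% had all cKO cultures above all WT cultures and 50.4% had no overlap in either direction. The genes differed widely in size of change: 4 of them fell more than 2-fold, as did 4.23% of all tested genes, and 3 kept 76.1% to 79.7% of their WT level. In a bulk sample, fewer cells that use a gene and less RNA of it per cell cannot be told apart.

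**Figure D1:**
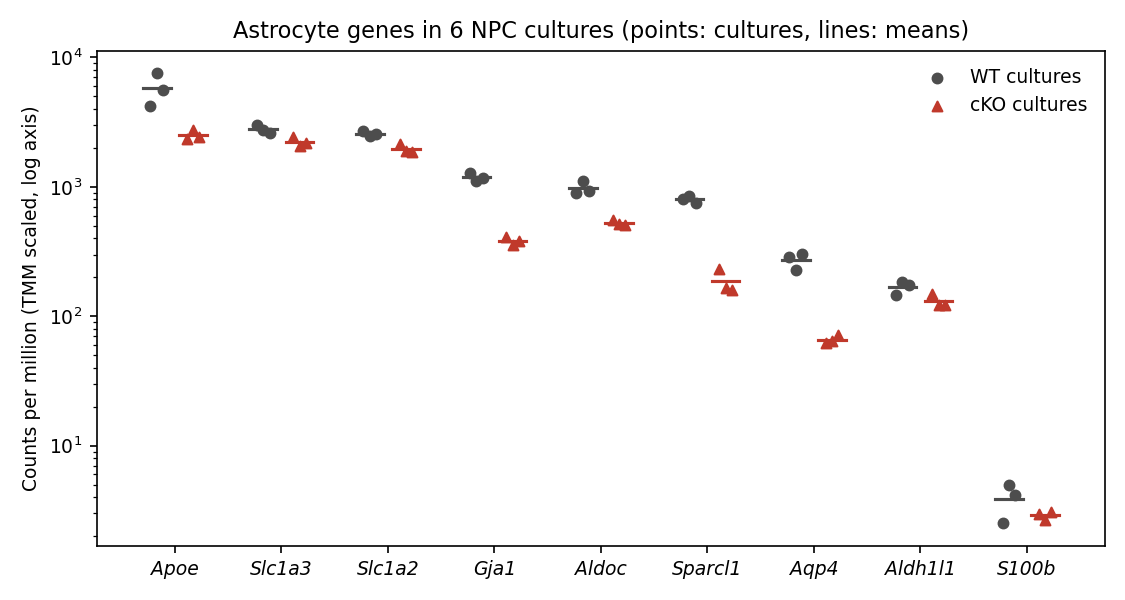
Level of each tested astrocyte gene in each of the 6 cultures, in CPM on a log axis, with WT as grey circles, cKO as red triangles and lines at the group means. The cKO points of Sparcl1, Aqp4 and Gja1 lie far below the WT points, while those of Aldh1l1 and S100b overlap with them.

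The genes of membrane channels fell most clearly. Aqp4 encodes aquaporin-4, the water channel of astrocyte end-feet. WT cultures had 288, 230 and 306 CPM of it, against 61.9, 64.3 and 71.2 CPM in those without Syncrip. Every cKO culture was thus below every WT culture, with a 4.17-fold lower level (log2 fold change -2.06, SE 0.11, edgeR quasi-likelihood adjusted p = 1.09e-08). Gja1 encodes connexin 43, which forms gap junctions between astrocytes and between radial glia. It was measured at 1282, 1115 and 1173 CPM in WT and at 412, 354 and 384 CPM in cKO cultures. Its groups were also apart, at a 3.11-fold lower level (log2 fold change -1.63, SE 0.09, edgeR adjusted p = 2.85e-08).

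The genes of secreted proteins fell as well. Sparcl1, which encodes hevin, a matrix protein that astrocytes release at synapses, had the largest change of the list. It stood at 811, 846 and 756 CPM in WT and at 231, 167 and 159.9 CPM in cKO cultures, 4.33-fold lower (log2 fold change -2.11, SE 0.12, edgeR adjusted p = 4.50e-08). Apoe, the lipid carrier of the brain, was the gene with the highest level of the list. Its values were 4219.6, 7546 and 5566 CPM in WT and 2335, 2745 and 2432 CPM in cKO cultures, so the WT cultures were spread out and still all above the cKO cultures. The fold was 2.31 (log2 fold change -1.21, SE 0.17, edgeR adjusted p = 0.000137).

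Of the metabolic enzymes, Aldoc, the brain form of the glycolytic enzyme aldolase, was the more clearly lower. Aldoc was measured at 892, 1108 and 922 CPM in WT and at 557, 513 and 509 CPM in cKO cultures, which do not overlap (log2 fold change -0.89, SE 0.10, edgeR adjusted p = 8.91e-06). Aldh1l1 encodes an enzyme of folate metabolism that is used as a marker of all astrocytes. Its values were 146, 183 and 175 CPM in WT and 148, 123 and 121.5 CPM in cKO cultures, so 1 cKO culture was above the lowest WT culture. Its change passed the test at a log2 fold change of -0.36 (SE 0.10, edgeR adjusted p = 0.0109), but not without WT replicate 2 (adjusted p = 0.0558) or without cKO replicate 3 (adjusted p = 0.0658). Of the exon bases of Aldh1l1, 34.9% are shared with other annotated genes, and the library kit does not mark strand.

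Both glial glutamate transporters fell by little. Slc1a2 encodes GLT-1, the main glutamate transporter of mature astrocytes, and was measured at 2712, 2474 and 2543 CPM in WT and at 2126, 1895 and 1861 CPM in cKO cultures. Its groups did not overlap, with 76.1% of the WT level left (log2 fold change -0.39, SE 0.09, edgeR adjusted p = 0.00364). Slc1a3 encodes GLAST, the transporter of radial glia and astrocytes, and stood at 3004, 2747 and 2595 CPM in WT and at 2416, 2056 and 2175 CPM in cKO cultures. It too was lower in every cKO culture, at 79.7% of the WT level (log2 fold change -0.33, SE 0.10, edgeR adjusted p = 0.0148). This call was lost without cKO replicate 2 (adjusted p = 0.102) and without cKO replicate 3 (adjusted p = 0.0806).

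S100b, a calcium-binding protein gene, was near the floor of the measurement, at 2.52, 4.96 and 4.15 CPM in WT and at 2.99, 2.68 and 3.09 CPM in cKO cultures. The groups overlapped and the difference did not pass the test (log2 fold change -0.40, SE 0.25, edgeR adjusted p = 0.232). Without WT replicate 1 it passed, at a log2 fold change of -0.64 (adjusted p = 0.0314). S100b shares 83.0% of its exon bases with Dip2a on the opposite strand, so its count is uncertain.

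Per kilobase of exon, the genes span a wide range of levels in WT cultures. Apoe was at 2702 CPM per kb, with only 3 of 14328 tested genes of known exon length above it. Slc1a3 followed at 326, Aldoc at 298.5, Sparcl1 at 274, Slc1a2 at 196 and Gja1 at 116 CPM per kb. Aqp4 was at 44.0 and Aldh1l1 at 37.2 CPM per kb, and S100b at 2.61 CPM per kb was below the median of all tested genes, 6.03 CPM per kb. With SDs of 24.2, 35.9 and 15.4 CPM per kb over the 3 WT cultures, Aldoc lay within its spread of both Slc1a3 and Sparcl1, while Slc1a3 and Sparcl1 were farther apart than their SDs. Of the 4 genes that fell most, Aqp4 had the lowest and Apoe the highest level on this scale.

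**Figure D2:**
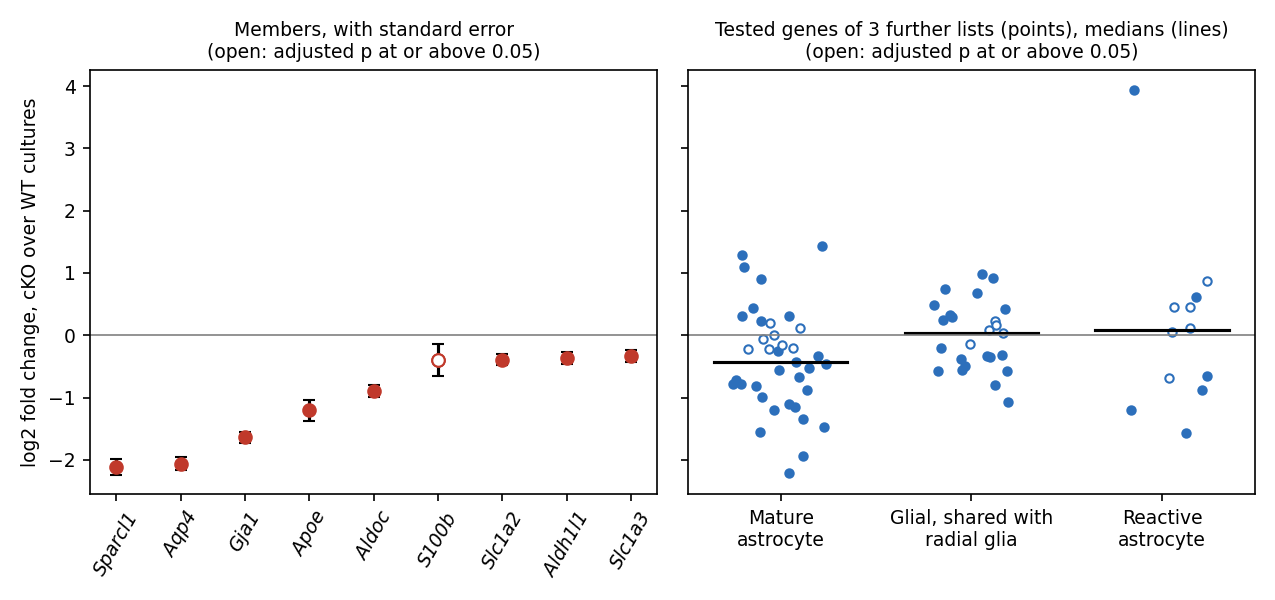
Left, log2 fold change of each tested astrocyte gene in cKO against WT cultures with its standard error; right, the same fold change (points) for the tested genes of 3 further gene lists with their medians (lines); open points have an adjusted p of 0.05 or more. All 9 astrocyte genes lie below 0, while each of the 3 lists has genes on both sides.

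Gfap, the intermediate filament gene that is the classical astrocyte marker, could not be judged in the cultures. It had 0 counts in all 6, as had all 9 genes, Gfap included (chromosome 11, 102887336 to 102900912 on mm10, minus strand), that lie inside the span of the long noncoding RNA gene Gm26668 (102863337 to 103075903, plus strand). Among these 9 are Kif18b, a mitotic kinesin gene, and Nmt1, which encodes an enzyme that most cells use. Gm26668 itself was given 77, 105 and 130 counts in WT and 70, 76 and 72 counts in cKO cultures. The pattern held over the whole table: all 10755 genes whose span lies inside that of another gene had 0 counts in every culture, 1185 protein-coding genes among them. Of the 10465 genes that share part of their span, 11.7% were at 0 in all cultures, and of the 27220 that share none, 51.5%. The 0 of Gfap in this table therefore cannot be read as absence of expression. The AP marker Sox2 and the astrocyte genes Htra1 and Lcat are at 0 and lie inside other genes in the same way.

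**Figure D3:**
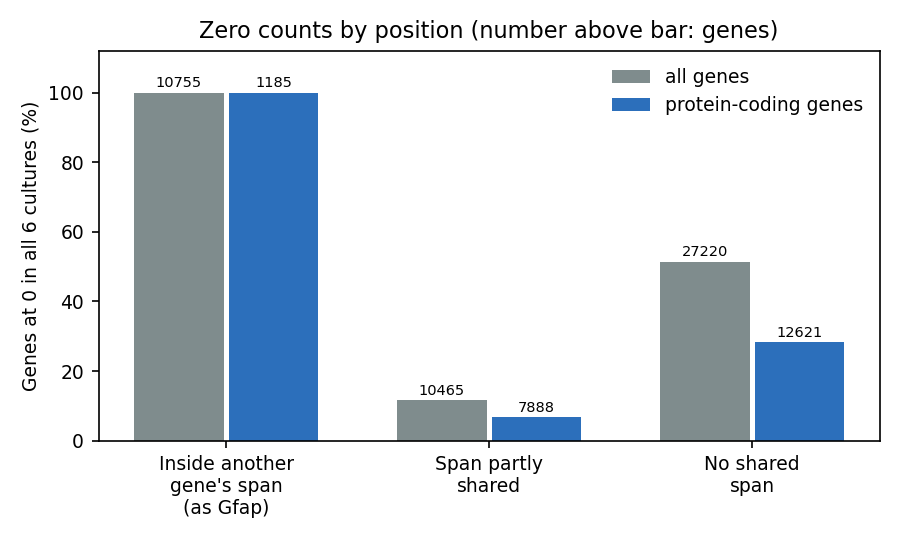
Share of genes with 0 counts in all 6 cultures, in percent, for genes whose span lies inside another gene, shares a part with another gene or shares nothing, in grey for all genes and in blue for protein-coding genes, with the number of genes above each bar. All 10755 genes of the first kind, to which Gfap belongs, are at 0.

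Other genes of mature astrocytes moved in both directions, and more of them fell than rose. Of a list of 40 such genes 37 were tested, of which 21 fell, 8 rose and 8 did not pass the test. Over all genes, 19.8% were called lower and 19.7% higher. The median log2 fold change of the list was -0.43, beside 0.002 over all genes. Gjb6, the connexin 30 gene and partner of Gja1 in astrocyte gap junctions, fell by 2.20 on the log2 scale, from 31.1, 24.7 and 32.8 CPM to 6.47, 5.48 and 7.23 CPM (edgeR adjusted p = 1.17e-07). Agt, the angiotensinogen gene, fell by 1.94 (edgeR adjusted p = 4.61e-06), and the metallothionein genes Mt2 and Mt1 fell by 1.54 and 1.47 (edgeR adjusted p = 0.000956 and 0.0018). The 4 largest rises were those of the citrate transporter gene Slc13a5 (1.43), the BMP antagonist gene Chrdl1 (1.30), the amino acid transporter gene Slc7a10 (1.09) and Itih3 (0.90), all at 25.0 CPM or less in every culture. The potassium channel gene Kcnj10 also rose, by 0.31 on the log2 scale (edgeR adjusted p = 0.0141), while Slc6a11, a GABA transporter gene of astrocytes, did not pass the test at 0.19 (edgeR adjusted p = 0.0896).

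Glial genes that radial glia and astrocytes share were called in both directions, with 9 of 25 higher, 11 lower and 5 not called, beside 19.7% higher and 19.8% lower over all genes, and had a median log2 fold change of 0.04. Nes (nestin, 0.92), Fabp7 (a fatty acid binding protein of radial glia, 0.75), Hopx (0.99) and Cd44 (0.67) rose. Id4 (-1.07), Phgdh (serine synthesis, -0.79), Dbi (-0.58) and the proteoglycan gene Cspg5 (-0.57) fell. Nes and Fabp7 are among the 12 AP markers, and so is Id4. Fabp7 stood at 1231, 1282 and 821 CPM in WT and at 2016, 1683 and 1889 CPM in cKO cultures, opposite to the astrocyte genes. Fabp7 is also the gene whose pattern over cortical cell clusters is most like that of Aldoc.

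Genes of reactive astrocytes showed 2 rises and 4 falls among 12 tested, beside 19.7% higher and 19.8% lower over all genes, with a median log2 fold change of 0.09. Socs3, an inhibitor of cytokine signaling through STAT proteins, rose most, from 3.602, 4.90 and 5.31 CPM to 59.9, 81.0 and 71.6 CPM (log2 fold change 3.94, SE 0.15, edgeR adjusted p = 7.31e-10), and the proteoglycan gene Vcan rose by 0.62. Serpina3n fell by 1.56 on the log2 scale, the oncostatin M receptor gene Osmr by 0.88 and S100a10 by 0.65, and S100a6 fell from 9.64, 9.36 and 10.7 CPM to 4.22, 3.495 and 5.16 CPM.

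Markers of other cells were measured beside these changes. Some of them lie inside other genes, so that, as for Gfap, their 0 cannot be read as absence. They are 1 of the 10 microglia markers, Ogn (meningeal fibroblasts), Gpr17 (oligodendrocyte lineage), Neurod1 (migrating neurons) and Sox2 (APs). They add nothing to the sums below. The 10 microglia markers summed to 0.891 to 1.70 CPM in WT and 1.86 to 2.68 CPM in cKO cultures, with C1qa, C1qb, C1qc, Tyrobp and P2ry12 at 0. The 8 endothelial markers summed to 2.56 to 3.30 CPM in WT and 2.17 to 2.45 CPM in cKO cultures, with Cldn5, Cdh5 and Egfl7 at 0, and the 8 meningeal fibroblast markers to 3.45 to 4.10 and 6.62 to 7.63 CPM. The 8 pericyte markers summed to 168 to 204 CPM in WT and 174 to 204 CPM in cKO cultures, mostly from Notch3 and Pdgfrb, which neural cells may also use, with Kcnj8 at 0. Of the 3 that were tested, Pdgfrb and Rgs5 fell. The 8 markers of the oligodendrocyte lineage summed to 4131 to 4539 CPM in WT and 3004 to 3598 CPM in cKO cultures, and the 8 of migrating neurons to 412 to 501 and 251 to 262 CPM. Both of these sums were lower in cKO, while the sum of the 10 immature neuron markers was higher, at 436 to 460.2 CPM in WT and 526 to 545 CPM in cKO cultures, as was that of the 12 AP markers, at 9465 to 11119 and 11787 to 12901 CPM. Single markers of both lists went both ways. Of 9 tested immature neuron markers 3 rose and 3 fell, with a median log2 fold change of -0.50. Of 11 tested AP markers 4 rose and 5 fell, with a median of -0.14. Over all genes, 19.7% were called higher and 19.8% lower. The part of these cells in the result was not tested.

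STAT and NFI transcription factors are known to take part in switching on astrocyte genes, so the start regions of the genes were searched for the motifs TTCNNNGAA (STAT) and TTGGC (NFI), on both strands. RefSeq (GRCm38.p6) windows of 300 bases around a start were at hand for 8 of the 10 genes and not for Aqp4 and Sparcl1. The 8 genes have 11 windows, since Aldoc has 2 and Apoe 3. The STAT motif was found in 3 of the 11 windows, of 3 genes, and in 8.30% of all 32851 windows. The NFI motif was found in 5 of the 11, of 4 genes, and in 46.7% of all windows. The STAT matches are shown with 10 bases on either side, on the strand of the gene, with the match in capitals, followed in the same form by 1 of the 2 NFI matches of Apoe, which fell most among the genes with a window and an NFI match, and by that of Slc1a2. The other NFI matches, 4 in S100b, 1 in Aldoc and 1 in Apoe, are not shown.
Gfap (chr11:102897184-102897212): atgggggtgcTTCCAGGAAgtcaggggca
Slc1a3 (chr15:8710885-8710913): ttcaggatccTTCCAAGAAatttcagtta
Aldoc (chr11:78324064-78324092): aggggccagaTTCAGTGAAagaagagctg
Aldoc (chr11:78324105-78324133): tggcagcagtTTCCAGGAAgacctgtggc
Apoe (chr7:19699223-19699247): gctccctttgTTGGCgggggagggg
Slc1a2 (chr2:102706314-102706338): gggggttggaGCCAAatgacagccc
The first base of the match lies 2 bases before the RefSeq start in Gfap, 96 before it in Slc1a3, 124 and 83 before it in the second of 2 Aldoc windows, 49 before it in the third of 3 Apoe windows and 114 before it in Slc1a2, where the motif is on the opposite strand. Genes with and without a match fell in the cultures: Gja1 and Aldh1l1 hold none of the motifs in their windows. A match is a description of the sequence and does not show binding.

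In the cortex, 8214 WT and 9560 cKO cells passed the filters, with medians of 11705 and 11012.5 unique molecular identifiers (UMIs, 1 per captured transcript) per cell, and 22 barcodes occurred in both libraries. Cells were clustered without the 10 genes and named from marker lists. With 1 embryo per genotype no test between genotypes is possible, and every interval below is a 95% interval that covers counting error only. No cluster was named astrocyte-like. AP-like cells, in 3 clusters, numbered 1002 in WT and 1351 in cKO. One of the 3 had a median of only 2776 UMIs per cell and was led by the embryonic globin gene Hba-x.

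Each of the genes had its own place in the WT cortex, and Aldoc and Aldh1l1 were those most confined to AP-like cells. AP-like cells held 91.6% of the Aldoc UMIs of the library and 209 of the 220 Aldh1l1 UMIs, with 14.1% of all UMIs. Aldoc was at 302 CPM in AP-like cells (95% interval 293 to 311) and at 17.8 CPM in IP-like cells (intermediate progenitors, 15.1 to 20.7), and it was at 1.81 CPM in immature neuron-like cells. Aldh1l1 was at 14.8 CPM in AP-like cells (12.88 to 16.98), and no other class held more than 5 of its UMIs. After each cell was thinned to 5000 UMIs, 65.7% of AP-like cells had a UMI of Aldoc (62.3% to 68.9%, 180 shallower cells left out) and 0.944% of immature neuron-like cells had one (65 left out). Without thinning these shares were 77.9% and 2.68%, at medians of 12781 and 15430 UMIs per cell.

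Slc1a3 was the astrocyte gene with the most UMIs in the cortex, 8991 in WT. Meningeal fibroblast-like cells had its highest level at 622 CPM (544 to 708), AP-like cells followed at 359 CPM (349 to 369) and held 56.3% of its UMIs. Immature neuron-like cells at 54.5 CPM and IP-like cells at 54.0 CPM did not differ beyond their intervals. Slc1a2, in contrast, was not an AP gene at this age. It was highest in Cajal-Retzius-like cells, the first-born neurons of the marginal zone, at 63.8 CPM (48.2 to 82.9). Unnamed cells followed at 19.8 CPM, IP-like cells at 19.5 CPM and GE-like cells, the interneuron lineage of the ganglionic eminence (GE), at 18.9 CPM, with overlapping intervals, and AP-like cells were at 8.72 CPM (7.25 to 10.4).

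Gja1, Apoe and Sparcl1 were highest outside the neural lineage. Gja1 was at 505 CPM in meningeal fibroblast-like (435 to 583), 104 CPM in endothelial-like and 32.4 CPM in AP-like cells (29.5 to 35.5). Apoe reached 9849 CPM in microglia-like cells, which held 68.7% of its UMIs in 31 cells, and was at 647 CPM in meningeal fibroblast-like, 303 CPM in endothelial-like and 44.4 CPM in AP-like cells (41.0 to 48.0). Immature neuron-like cells, which are not known to use Apoe, had 3.58 CPM of it. Sparcl1 was at 937 CPM in endothelial-like, 660 CPM in meningeal fibroblast-like and 487 CPM in pericyte-like cells, whose last 2 intervals (580 to 749 and 418 to 564) do not overlap. Among neural cells Sparcl1 was higher in immature neuron-like cells, at 27.7 CPM (25.8 to 29.7), than in AP-like cells, at 11.1 CPM (9.40 to 12.9).

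Gfap, Aqp4 and S100b were barely captured. Gfap had 14 UMIs in the 8214 WT cells and 10 in the 9560 cKO cells, and Aqp4 had 29 and 31. AP-like cells held 15 of the 29 WT UMIs of Aqp4 (1.06 CPM, 0.596 to 1.75), and the remaining 14 were in IP-like and neuron-like cells. S100b had 132 and 157 UMIs and was spread over the classes, with 0.709 CPM in AP-like and 2.03 CPM in GE-like cells, so it did not mark APs. In WT cultures Aqp4 was at a mean of 274 CPM, a value from another assay.

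**Figure D4:**
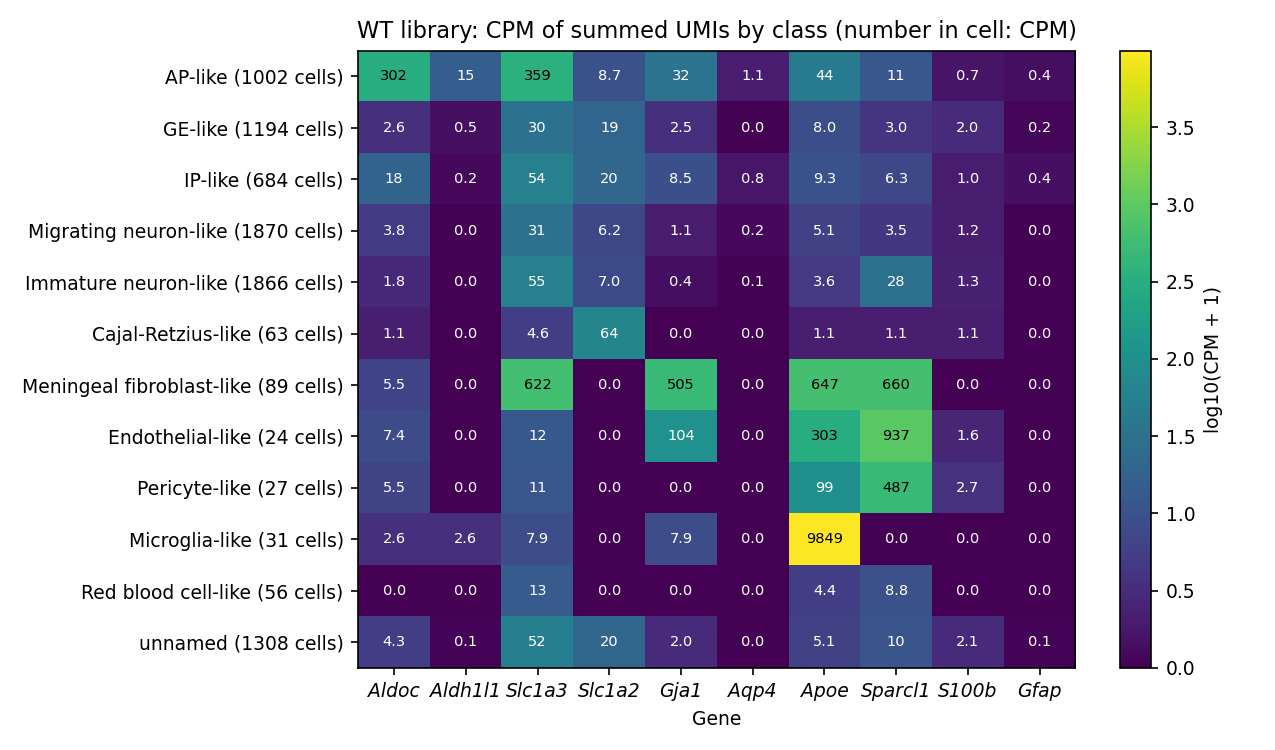
Level of each astrocyte gene in each class of the WT library, in CPM of UMIs summed over its cells (printed in each field), with color showing log10(CPM + 1). Aldoc and Aldh1l1 are highest in AP-like cells, Apoe in microglia-like cells, Sparcl1 in endothelial-like cells, and Slc1a3 and Gja1 in meningeal fibroblast-like cells.

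Across the 23 clusters with at least 50 WT cells, the genes did not form 1 pattern. Aldh1l1 and Aldoc were alike (Pearson r = 0.84 of log2(CPM + 1)), and Gja1 and Apoe were alike (r = 0.86), while Slc1a2 and Slc1a3 were not (r = -0.22). The clusters share a library and differ in depth, so these correlations are descriptions. Of 10644 genes, the ones most like Aldoc were the radial glia gene Fabp7 (r = 0.93), Tmem216, Dapp1, Gm11627 and the metallothionein gene Mt3 (0.91). Those most like Aldh1l1 were 2810459M11Rik (0.91), Scrg1, the chloride channel gene Ttyh1, the BMP antagonist gene Nog and Mir670hg. Gja1 was nearest to the basement membrane collagen gene Col4a5 (0.93), Apoe to Copz2 and Kank2 (both 0.91) and Sparcl1 to the matrix gene Dcn (0.83), which is a marker of fibroblasts. Slc1a3 was nearest to Fstl1 (0.86) and Slc1a5 (0.86), Slc1a2 to Zfp946 (0.81) and S100b to Adar (0.83).

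Between the genotypes, AP-like cells showed small differences in most of the genes and a larger one in Apoe. Apoe was at 44.4 CPM in WT (626 UMIs) and 28.1 CPM in cKO (560 UMIs), a log2 ratio of -0.66 (-0.83 to -0.49). Of the 10547 genes with at least 200 UMIs in AP-like cells, 58 had a lower ratio, and 80% of all these ratios lay between -0.20 and 0.21. The difference was present in each of the 3 AP-like clusters, at -0.39 (-0.62 to -0.16), -0.99 (-1.26 to -0.73) and -0.94 (-1.75 to -0.16). After thinning to 5000 UMIs, 15.4% of WT and 11.1% of cKO AP-like cells had a UMI of Apoe (13.0% to 18.1% and 9.34% to 13.0%), and without thinning 30.2% and 24.5%. In immature neuron-like cells Apoe was at 3.577 and 4.004 CPM, and in microglia-like cells at 9849 and 11707 CPM, so the lower level of the cKO library was not seen there.

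Aldoc was higher in cKO AP-like cells, at 332 against 302 CPM (log2 ratio 0.14, 0.08 to 0.19). Over the whole libraries Aldoc was at 65.6 CPM in cKO and 46.5 CPM in WT, a level that also depends on the share of AP-like cells. AP-like cells held 91.6% of its WT and 90.8% of its cKO UMIs. They made up 14.1% of all WT UMIs and 17.9% of all cKO UMIs. By class, Aldoc was also higher in cKO IP-like cells (log2 ratio 0.58, 0.29 to 0.88). It was higher too in immature neuron-like (0.86, 0.36 to 1.37), migrating neuron-like (0.53, 0.12 to 0.94) and GE-like cells (1.17, 0.535 to 1.84). Its levels there were low, at 1.81 and 3.28 CPM, 3.83 and 5.52 CPM, and 2.59 and 5.81 CPM. The part of background in such levels was not tested. Slc1a3 was nearly level in AP-like cells, at 359 and 344 CPM (log2 ratio -0.06, -0.12 to -0.01). Gja1 had a log2 ratio of -0.08 (-0.26 to 0.09) and Sparcl1 of -0.18 (-0.49 to 0.14), and neither was distinguishable from 0 at this depth. Slc1a2 was in WT AP-like cells at 8.72 CPM and in those of the cKO at 6.77 CPM (log2 ratio -0.37, -0.73 to -0.0012).

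Aldh1l1 was lower in the cKO library when UMIs were summed, at 11.7 against 14.8 CPM (log2 ratio -0.34, -0.62 to -0.07), but 1 WT cell with 46 of the 209 UMIs decided this. Without the cell with the most UMIs in each library the log2 ratio was -0.07 (-0.37 to 0.23), and with every cell weighted equally it was 0.11. Its share of AP-like cells with a UMI was 6.69% in WT and 5.996% in cKO. Aqp4, with 15 UMIs in each library, Gfap, with 6 and 7, and S100b, with 10 and 22, had too few UMIs for a comparison. The median log2 ratio of the 7 genes with at least 200 UMIs was -0.18, beside -0.01 for all 10547 genes.

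**Figure D5:**
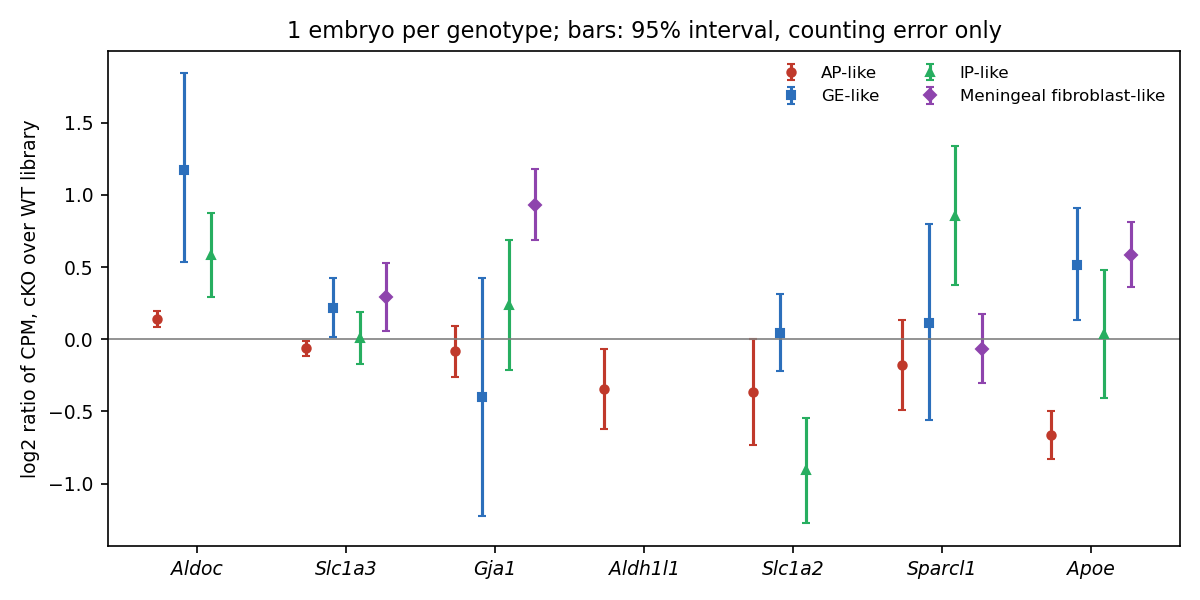
Log2 ratio of CPM in the cKO over the WT library for 7 astrocyte genes in 4 classes, with 95% intervals that cover counting error only; points with under 10 UMIs in a library are left out. Apoe lies below 0 in AP-like cells and above 0 in GE-like and meningeal fibroblast-like cells, and Aldoc lies above 0 in AP-like, GE-like and IP-like cells.

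Other classes differed in ways of their own. In GE-like cells, where Emx1-Cre is not known to act, Apoe was higher in cKO, with 11.5 CPM beside 8.03 CPM in WT (log2 ratio 0.52, 0.13 to 0.91). In IP-like cells Slc1a2 was lower in cKO, at 10.4 against 19.5 CPM (log2 ratio -0.91, -1.27 to -0.55), and Sparcl1 was higher, at 11.4 against 6.29 CPM (0.85, 0.38 to 1.34). In meningeal fibroblast-like cells, 89 in each library, the level of Gja1 was 505 CPM in WT, beside 963 CPM in cKO (log2 ratio 0.93, 0.69 to 1.18) and Apoe at 647 and 970 CPM (0.58, 0.36 to 0.81). Those cells had medians of 1845 and 2477 UMIs, and only 16 WT and 31 cKO cells were deep enough for thinning. After thinning, 81.3% of WT and 83.9% of cKO cells had a UMI of Gja1. For Apoe these shares were 93.8% and 87.1%, and the intervals overlapped for both genes. Without thinning, the shares over all 89 cells were 21.3% and 43.8% for Gja1 and 44.9% and 51.7% for Apoe. The part of cell depth in the summed levels was not tested. In migrating neuron-like cells the level of Slc1a2 was 6.24 CPM in WT, beside 15.6 CPM in cKO (1.32, 1.03 to 1.61), and 1 cluster of this class, led by Tafa1 and Tfap2d, held 279 of the 358 cKO UMIs. That cluster had 125 WT and 461 cKO cells, with Slc1a2 at 28.5 and 59.5 CPM in them. Each of these differences is between 2 embryos.

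Set side by side, the values of the cultures and of the AP-like cells were far apart for some genes and close for others. Sparcl1 had a log2 fold change of -2.11 in cultures and a log2 ratio of -0.18 in AP-like cells, Gja1 of -1.63 and -0.08, Aldoc of -0.89 and 0.14 and Apoe of -1.21 and -0.66. Slc1a2 was at -0.39 and -0.37, Aldh1l1 at -0.36 and -0.34 (-0.07 without the top cells) and Slc1a3 at -0.33 and -0.06. Among the 7 genes with 200 UMIs or more, Apoe had the largest difference in AP-like cells. Of the further lists, Mt2 and Mt1 fell in cultures and had log2 ratios of 0.15 and 0.19 in AP-like cells. Socs3 rose in cultures and had 0.27, from only 82 WT and 140 cKO UMIs. No intervals were computed for the genes of these lists. Other named genes of the lists went both ways. Id4 (0.35), Nes (-0.22), Hopx (-0.26) and Kcnj10 (-0.51) had the sign opposite to the cultures. Fabp7 (0.09), Vcan (0.06), Phgdh (-0.09) and S100a10 (-0.25) were among those with the same sign. The mature astrocyte list had a median log2 ratio of 0.09 over the 24 genes with at least 200 UMIs in AP-like cells. No test compared the assays.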

How the data were processed

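The RNA-seq table that the authors deposited holds unnormalized read counts by gene for each culture. Processing notes name mm10 and HISAT2, but not the counting program, its annotation or its strand setting. For scRNA-seq, they deposited UMI counts per gene and barcode from Cell Ranger 7.0.0, with no statement on intronic reads. The LACE-seq samples were not analysed here.

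Counts were tested with edgeR 4.0.16 in R 4.3.3 (filterByExpr, TMM, robust quasi-likelihood F test, Benjamini-Hochberg at 0.05 over all 14432 genes), and CPM are TMM scaled. Exons came from GENCODE M21; 42164 of the 48440 genes matched it by position. With 3 against 3 an exact permutation test cannot go below 0.1. Alternatives used DESeq2 1.42.0 and limma 3.58.1.

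Barcodes with 200 or more genes and no more than 10% of UMIs from mitochondrial genes were clustered in Seurat 5.3.0 (2000 variable genes without the 10 genes, sex and mitochondrial genes, 30 components, 20 neighbours, resolution 0.8). A cluster was named from its markers (mean z 0.5 or more, 3 or more of them raised 1.5-fold). Doublets (Scrublet in scanpy 1.11.5, 284 WT and 446 cKO) were removed only as an alternative. UMIs were summed by class, with exact Poisson and binomial 95% intervals, and 3 UMIs as the limit for a count of 0. Scripts were tested on simulated data.

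The genes, lists and tests were chosen with earlier results of these data known. Named were all 10 genes, up to 4 called genes per list and direction with the largest fold at 1 CPM or more, and the nearest genes over clusters. Kcnj10, Slc6a11 and the genes in the closing section were named after their values were seen.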

Additional observations from a re-analysis of the deposited data

Results flagged for a closer look

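In 2 genes the difference between the embryos went one way in AP-like cells and the other way in GE-like cells, with both intervals away from 0. Apoe had a log2 ratio of -0.6606 in AP-like and 0.5154 in GE-like cells. The GE-like clusters did not share this rise. Those led by Sst and Adarb2 were at 0.76 (-0.02 to 1.60) and 1.08 (0.11 to 2.15). Those led by Helt and Isl1 were at -0.07 (-0.63 to 0.50) and -0.95 (-4.42 to 1.85, few UMIs). The cluster led by Nell1 had 0 WT and 18 cKO UMIs. Slc1a3 had a log2 ratio of -0.0634 in AP-like and 0.2182 in GE-like cells. In the 3 AP-like clusters Slc1a3 was at 0.02 (-0.05 to 0.10), -0.18 (-0.26 to -0.10) and -0.16 (-0.75 to 0.44). Of the 10547 genes with at least 200 UMIs in AP-like cells, 34.1% had a lower ratio than Slc1a3. The difference between the classes was not tested, since each genotype is 1 embryo. In GE-like cells Apoe and Slc1a3 were at 8.03 and 29.7 CPM in WT, below AP-like cells at 44.4 and 359 CPM. Immature neuron-like cells, which are not known to use Apoe, had 3.58 CPM of it in WT and 4.004 CPM in cKO, and the part of such background was not tested.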

How the results depend on the processing

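In the cultures, 8 genes of the list were called lower and 0 higher under RLE or upper quartile scaling, without a count filter or with 1 CPM in 3 cultures, with DESeq2, with limma-voom and with a covariate for Y-linked counts. Leaving out 1 culture gave 6 to 9 lower calls and 0 higher ones, and over all genes 2068 to 3070 higher and 2040 to 3275 lower calls beside 2843 and 2858. All 126 alternative fold changes of the genes were negative, and 121 kept their side of the threshold. Replicate numbers of the labels did not pair the cultures (correlations of same-numbered deviations 0.26, -0.05 and 0.12), and a replicate block left 8 genes called lower and 0 higher, with 3189 and 3216 calls over all genes. In AP-like cells the median log2 ratio stayed between -0.23 and -0.05 under all alternatives. Aldh1l1 changed sign to 0.11 with cells weighted equally and to 0.11 with cells thinned to 5000 UMIs, and Aldoc went to 0.20 with thinning; 86 of 89 single values stayed within their intervals. Apoe lay between -0.74 and -0.64 throughout. Leaving out the AP-like cluster of lowest UMI count and leaving out the cell with the most UMIs were chosen after seeing the data. Depth limits Gfap, Aqp4 and S100b in single cells.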

Other observations

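The UMIs of Aldh1l1 came from few AP-like cells. In all, 67 of 1002 WT and 81 of 1351 cKO AP-like cells had any UMI of it, and the 10 cells with the most held 51.7% and 37.3% of its UMIs. Sparcl1 (48.1% and 30.3%) and Slc1a2 (37.4% and 34.8%), which have similar UMI counts, were alike in this, and Aldoc, with many more UMIs, had 6.23% and 4.61%. Cells with 3 or more Aldh1l1 UMIs numbered 25 in WT and 31 in cKO, which is 2.50% and 2.29% of AP-like cells, and no cell outside the AP-like class reached 3. This limit was chosen after the values were seen, and no test was made. The 56 cells had a median of 16803 UMIs beside 12690 in the other AP-like cells, and 2 of them were called doublets.

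With UMIs summed over cells, these 56 cells held other astrocyte genes at higher levels than the rest of the AP-like cells. Slc1a2 was at 76.4 CPM in them and 5.91 CPM in the other AP-like cells of the WT library, and at 64.7 and 4.87 CPM in the cKO library. Sparcl1 was at 101 and 7.31 CPM in WT and at 86.8 and 7.25 CPM in cKO. Of the 56 cells, 29 had a UMI of Slc1a2 and 22 had one of Sparcl1, while all 56 had one of Slc1a3. Aqp4 had 7 UMIs in the 56 cells and 23 in the other AP-like cells, and Gfap and S100b had 0. Gja1 was only 1.38-fold higher. Of the mature astrocyte genes with at least 200 UMIs over all AP-like cells, 22 of 24 were higher in the 56 cells and 13 at least 2-fold, beside 42.7% and 4.0% of all 10549 such genes. The GABA transporter gene Slc6a11 was 17.2-fold higher, and of genes with fewer UMIs Hepacam was 21.1-fold higher and the zinc transporter gene Slc39a12 had 20 of its 25 UMIs there. Slc6a11, Hepacam and Slc39a12 had a UMI in 35, 15 and 11 of the 56 cells. Of the glial genes shared with radial glia, 17 of 24 were higher and 12 at least 2-fold. Tnc (8.20-fold), Fabp7 (5.42-fold) and Ptprz1 (4.33-fold) were higher, while Nfib and Nfix were at 0.475 and 0.357 of the level of the other AP-like cells. Of the oligodendrocyte lineage genes, Olig2 was 4.95-fold higher, with 20 UMIs in the 56 cells, and Pdgfra and Sox10 had 0 UMIs there. All 8 IP markers were lower.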
